A study of Mus musculus with 10 samples.

Results

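Adipocytes are the lipid-storing cells of fat, and their RNA can enter a tumour sample with the fat pad or skin around the tumour. The 10 adipocyte genes described here are Adipoq, Lep, Cfd and Retn, which encode secreted products, Plin1, Plin4 and Cidec, which encode lipid droplet proteins, Fabp4 and Lpl, which act in fatty acid handling, and Pck1. They were chosen as known adipocyte markers, with earlier results of these data known. Rows were matched by gene symbol in the GENCODE M21 annotation, and the members make up 10 of the 18047 genes in the table. All 10 passed the filter on low values (a mean of at least 10 normalized counts) and entered the test with 17975 genes in all.

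The RNA came from frozen sections of tumours of the 4T1 line, a mammary carcinoma of the BALB/c strain, after 3 weeks of growth in BALB/c mice. In 5 libraries (KO1 to KO5) the tumour cells had a gene knocked out (KO), and in 5 (WT1 to WT5) they were wild type (WT). The host animals, and so the fat around a tumour, were not described as differing between the groups. The implantation site, the number of clones and the age and sex of the mice are not given in the sources used here. The libraries held 8609756 to 19934428 reads, and all carry the batch label 1. No label links a library to an animal. The p-values below therefore set the group difference against the spread between these libraries, which may be technical. An unexplained prefix, RESUB, stands before the names of KO5, WT1, WT2, WT3 and WT4, and WT2 and WT5 share the number 170.

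White adipocytes store triglyceride in a large lipid droplet coated by perilipins and enlarged by Cidec. They take up fatty acids that lipoprotein lipase releases from circulating lipoproteins, and they secrete hormones such as leptin and adiponectin. The nuclear receptor encoded by Pparg and the C/EBP transcription factors drive the programme. The mammary gland of the mouse lies within a fat pad, so fat is a normal neighbour of a mammary tumour.

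The promoters of 4 members are shown as examples. Each of these genes had low values in KO2 and KO5, and each window was picked because it holds a match to the C/EBP motif TTNCNNAA. Cidec met both conditions too and is not shown. RefSeq windows (GRCm38.p6, 250 bases before to 50 after each gene start) were matched for 8 of the 10 members, with 9 windows in all. The windows shown are chr16:23146286-23146585 on the plus strand for Adipoq, chr6:29059971-29060270 on the plus strand for Lep, chr7:79732727-79733026 on the minus strand for Plin1 and chr2:173152823-173153122 on the plus strand for Pck1. Each is printed 5′ to 3′ along its gene, with matches to the motif, searched on both strands, in capitals.
Adipoq: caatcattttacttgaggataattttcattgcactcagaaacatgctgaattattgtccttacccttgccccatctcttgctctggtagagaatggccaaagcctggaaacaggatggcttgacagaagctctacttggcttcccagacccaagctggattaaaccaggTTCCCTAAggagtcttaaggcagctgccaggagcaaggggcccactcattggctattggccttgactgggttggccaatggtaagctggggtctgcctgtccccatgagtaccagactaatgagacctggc
Lep: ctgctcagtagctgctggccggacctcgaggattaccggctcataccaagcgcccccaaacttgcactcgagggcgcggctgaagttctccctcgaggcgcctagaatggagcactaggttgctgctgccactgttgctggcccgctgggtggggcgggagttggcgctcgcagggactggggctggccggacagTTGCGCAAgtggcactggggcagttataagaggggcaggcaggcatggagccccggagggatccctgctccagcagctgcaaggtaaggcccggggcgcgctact
Plin1: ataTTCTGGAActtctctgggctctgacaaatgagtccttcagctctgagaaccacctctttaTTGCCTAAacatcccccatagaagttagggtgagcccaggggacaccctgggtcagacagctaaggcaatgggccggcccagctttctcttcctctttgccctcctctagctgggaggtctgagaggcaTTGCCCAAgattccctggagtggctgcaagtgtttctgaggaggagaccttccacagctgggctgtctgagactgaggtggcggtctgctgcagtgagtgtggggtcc
Pck1: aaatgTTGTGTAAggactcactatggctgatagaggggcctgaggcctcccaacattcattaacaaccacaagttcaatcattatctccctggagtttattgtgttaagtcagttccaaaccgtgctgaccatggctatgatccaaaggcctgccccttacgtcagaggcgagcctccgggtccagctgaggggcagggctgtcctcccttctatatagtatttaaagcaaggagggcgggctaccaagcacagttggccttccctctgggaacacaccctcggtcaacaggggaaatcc
The match began 81 bases before the start in Adipoq, 55 in Lep and 245 in Pck1. Plin1 had 3 matches, which began 247, 187 and 58 bases before the RefSeq start. In GENCODE the gene begins further upstream, at 79732903 on the minus strand, so the last of these matches lies inside the GENCODE gene. The motif was found in 5 of the 8 matched genes (Cidec was the other). By window, it was in 6 of the 9 member windows and in 40.7% of 32851 windows over all genes. The nuclear receptor hexamer AGGTCA, which was in 16.3% of windows, was in 0 of the 9 member windows. Its direct repeat, 2 copies of the hexamer with 1 base between them, was in 0.0396% of windows and in 0 of the 9.

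Adipoq (ENSMUSG00000022878, chromosome 16 from 23146536 to 23158028, plus strand) encodes adiponectin, a hormone made almost only by adipocytes. Its normalized counts were 175, 9.38, 217, 376 and 2.62 in KO1 to KO5, against 104, 810, 35.9, 249.8 and 106 in WT1 to WT5. KO2 and KO5 were the 2 lowest libraries, the other 3 KO libraries lay inside the WT range, and WT2 was the highest. The mean was 156 ± 156 in KO and 261 ± 316 in WT (n = 5 per group, SD), and the fitted log2 difference was -1.46 ± 1.21 (SE, limma adjusted p = 0.907). In bulk tumour RNA, fewer adipocytes and less RNA of a gene per adipocyte cannot be told apart, here or for the other members.

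**Figure D1:**
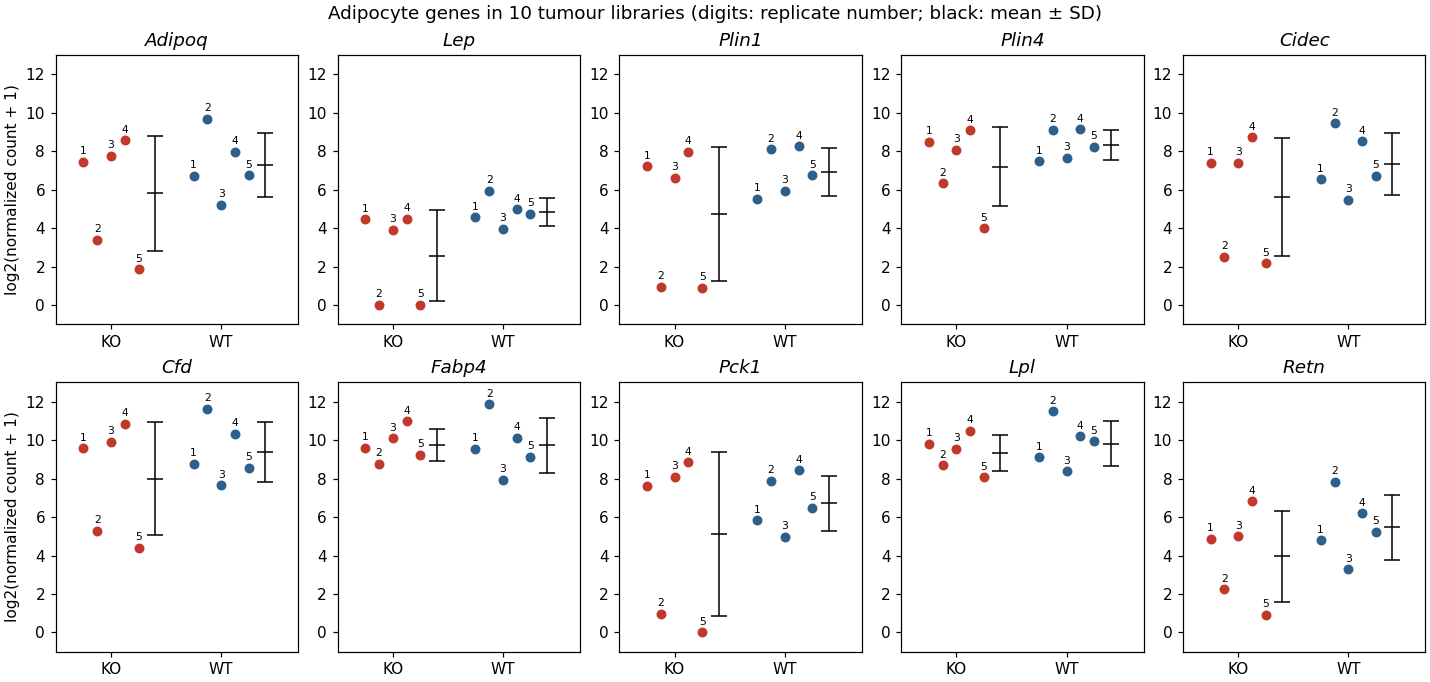
Log2 of the normalized count plus 1 (vertical axis) of each adipocyte gene in the 5 KO (red) and 5 WT (blue) libraries, with the replicate number above each point and the mean ± SD in black. KO2 and KO5 are the 2 lowest libraries for 8 of the 10 genes, and in Fabp4 and Lpl they lie closer to the other libraries.

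Lep (ENSMUSG00000059201, chromosome 6 from 29060220 to 29073877, plus strand) encodes leptin, the hormone that reports fat stores to the brain. It had 21.0, 0, 14.1, 21.5 and 0 normalized counts in KO1 to KO5, against 22.4, 60.1, 14.6, 30.4 and 25.5 in WT1 to WT5. The KO libraries overlapped the WT libraries only in KO1 and KO4, and KO3 lay just under WT3. Its log2 difference of -2.26 ± 0.91 (SE) was the member furthest below 0, with a limma p of 0.028 before adjustment and an adjusted p of 0.71. A count of 0 allows up to 3 reads, or 2.81 normalized counts in KO2 and 2.62 in KO5. The gene is low in all libraries, and the whole KO group held 15, 0, 10, 21 and 0 of its reads.

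Cfd (ENSMUSG00000061780, chromosome 10 from 79890853 to 79892655, plus strand) encodes adipsin, the complement factor D that fat secretes. Its normalized counts were 756, 37.5, 956, 1820.0 and 20.1 in KO1 to KO5, against 436, 3153, 199, 1274 and 374 in WT1 to WT5. KO2 and KO5 were below every WT library, while KO1, KO3 and KO4 were above 3, 3 and 4 of the 5 WT libraries. The means were 718 ± 745 in KO and 1087 ± 1227 in WT (n = 5 per group, SD), with a log2 difference of -1.39 ± 1.18 (SE, limma adjusted p = 0.912). Retn (ENSMUSG00000012705, chromosome 8 from 3655770 to 3660110, plus strand) encodes resistin, which mouse adipocytes secrete. It had 27.96, 3.75, 30.9, 112 and 0.873 normalized counts in KO1 to KO5, against 26.6, 227, 8.74, 72.4 and 36.6 in WT1 to WT5. KO2 and KO5 were again the lowest, and the log2 difference was -1.50 ± 1.05 (SE, limma adjusted p = 0.888).

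Plin1 (ENSMUSG00000030546, chromosome 7 from 79720218 to 79732903, minus strand) encodes perilipin 1, which coats the adipocyte lipid droplet and gates lipolysis. Its normalized counts were 147, 0.938, 97.0, 247 and 0.873 in KO1 to KO5, against 44.9, 273, 60.2, 302 and 106 in WT1 to WT5. KO2 and KO5 rested on 1 read each, and KO1, KO3 and KO4 lay inside the WT range. The mean was 98.6 ± 104 in KO and 157 ± 121 in WT (n = 5 per group, SD), with a log2 difference of -2.18 ± 1.32 (SE, limma adjusted p = 0.864). Cidec (ENSMUSG00000030278, chromosome 6 from 113424634 to 113435760, minus strand) encodes a protein that fuses small droplets into large ones. It had 167.8, 4.69, 168.7, 421 and 3.49 normalized counts in KO1 to KO5, against 91.4, 696, 43.7, 366 and 104 in WT1 to WT5. Its pattern was that of Adipoq, with KO2 and KO5 lowest and WT2 highest, and the log2 difference was -1.70 ± 1.23 (SE, limma adjusted p = 0.891).

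Plin4 (ENSMUSG00000002831, chromosome 17 from 56100591 to 56109803, minus strand) encodes a perilipin of nascent droplets. It shares 17 exonic bases with Hdgfl2, and whether counting used strand is not given, so a few reads could belong to either gene. It had 355, 79.7, 266, 539 and 14.8 normalized counts in KO1 to KO5, against 177, 556, 200.025, 564 and 299 in WT1 to WT5. KO2 and KO5 were below every WT library here too, although KO2 kept 85 reads of it where Plin1 had 1. The log2 difference was -1.14 ± 0.79 (SE, limma adjusted p = 0.887).

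Fabp4 (ENSMUSG00000062515, chromosome 3 from 10204088 to 10208576, minus strand) encodes a fatty acid binding protein of adipocytes that endothelial cells and macrophages also make. Its normalized counts were 772, 435, 1094, 2012 and 608 in KO1 to KO5, against 741, 3732, 242, 1116 and 563 in WT1 to WT5. All 5 KO libraries lay inside the WT range, and WT3 was the lowest library. The log2 difference was 0.02 ± 0.60 (SE, limma adjusted p = 0.997), the 1 member fitted above 0. Lpl (ENSMUSG00000015568, chromosome 8 from 68880491 to 68907448, plus strand) encodes lipoprotein lipase, which macrophages and muscle also make. It had 895, 414, 749, 1419 and 265 normalized counts in KO1 to KO5, against 549, 2878, 329, 1177 and 983 in WT1 to WT5. KO5 was the lowest library, WT3 came next and KO2 after it, and the log2 difference was -0.50 ± 0.55 (SE, limma adjusted p = 0.949). These 2 genes are the members with the most reads left in KO2 and KO5, 464 and 696 reads of Fabp4 and 441 and 304 of Lpl.

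Pck1 (ENSMUSG00000027513, chromosome 2 from 173153048 to 173159273, plus strand) encodes the cytosolic PEP carboxykinase, which in fat makes the glycerol backbone of triglyceride. Its normalized counts were 196, 0.938, 271, 459.9 and 0 in KO1 to KO5, against 55.7, 233, 30.1, 342 and 87.5 in WT1 to WT5. KO4 was the highest of all 10 libraries and KO5 the lowest, so the spread was wider in KO than in WT. The mean was 186 ± 194 in KO and 149.6 ± 133 in WT (n = 5 per group, SD), higher in KO, while the log2 difference of -1.61 ± 1.59 (SE, limma adjusted p = 0.94) ran the other way. The log scale gives more weight to the counts near 0 in KO2 and KO5, and edgeR (0.30) and DESeq2 (0.31) gave log2 differences above 0 for this gene.

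Of the 10 members, 0 passed the limma threshold in either direction, against 1 of 17975 genes tested (0.00556%), which was lower in KO. At an unadjusted p under 0.05, 1 member (Lep) was lower and 0 were higher, beside 3.67% of all genes lower and 2.82% higher. The fitted difference was below 0 for 9 members and above 0 for 1, beside 51% of all genes below 0. The median over the members was -1.48, beside -0.01 over all genes tested, and 8 members had a log2 difference of -1 or lower, beside 3.27% of all genes. The groups did not separate in any of the 10 members, and 0.734% of all genes were lower in every KO library and 0.684% higher. edgeR and DESeq2 also called 0 of the 10, beside 0.00556% of all genes by edgeR, and 0.53% lower and 0.145% higher by DESeq2.

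**Figure D2:**
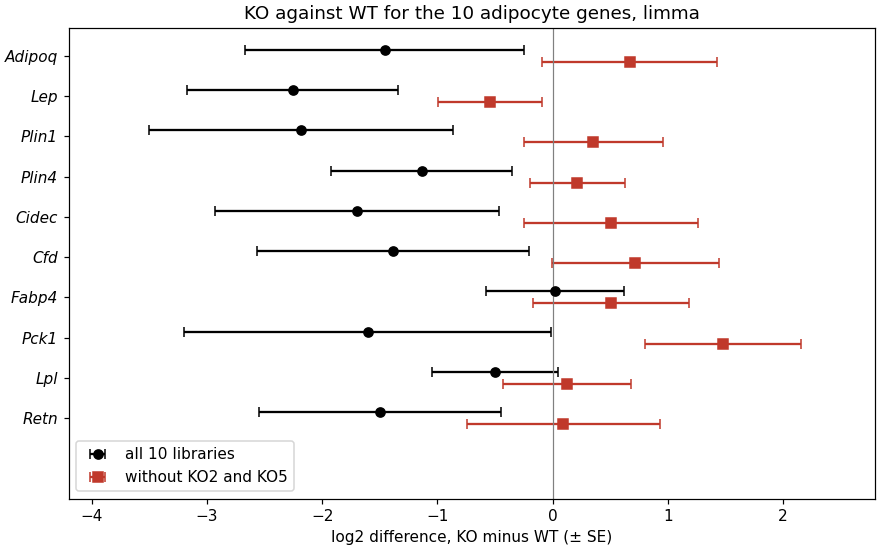
Fitted log2 difference, KO minus WT (horizontal axis, ± SE), of each adipocyte gene with all 10 libraries (black circles) and without KO2 and KO5 (red squares). With all libraries 9 genes lie below 0, and without KO2 and KO5 the values run from -0.54 for Lep to 1.48 for Pck1.

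The size of the group difference varied with the libraries included. KO2 and KO5 were the 2 lowest of the 10 libraries in 8 members, which held for 3.87% of all genes tested, and KO1, KO3 and KO4 all lay inside the WT range in 8 members. Without KO2 and KO5 the median of the 10 log2 differences was 0.43, with Lep at -0.54 ± 0.45, Adipoq at 0.67 ± 0.76, Cfd at 0.72 ± 0.73 and Pck1 at 1.48 ± 0.67 (SE; limma adjusted p between 0.998 and 0.999 for all 10 members). These 2 libraries were left out because their members were low, so the move upward follows from that choice and is given as a description. Leaving out KO5 alone gave a median of -0.48 and leaving out KO2 alone -0.88. Leaving out WT2, the library with the most member RNA, gave -0.92.

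By library name, the RESUB prefix divides the groups unevenly, with 1 KO library and 4 WT libraries inside it. Within the prefixed libraries (KO5 against WT1 to WT4) the median of the members was -5.02. Among those without the prefix (KO1 to KO4 against WT5) it was -0.22. KO2, which lacks the prefix, and KO5, which carries it, were together the 2 lowest libraries in 8 members. In each of these fits 1 group was a lone library, assumed to vary like the others. With the prefix as a term over all 10 libraries, the median was -2.65, and 0 members were called in any of the 3 fits.

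The spread between libraries was wide in both groups. On the log2 scale the SD of a member ran from 0.845 to 4.26 in KO and from 0.722 to 1.69 in WT. Its median over the members was 2.65 in KO and 1.44 in WT, beside 0.368 in KO and 0.463 in WT over all genes. The SD was larger in KO for 8 members, and for 30.1% of all genes. Within WT alone, WT2 held 22.5 times the Adipoq, 25.9 times the Retn and 15.9 times the Cidec of WT3. Summed over the 10 genes, the normalized counts were 3512, 986, 3864, 7428 and 916 in KO1 to KO5, against 2248, 12618, 1163, 5493 and 2685 in WT1 to WT5. KO4 was the highest KO library in all 10 members, WT2 the highest WT library in 7 and WT3 the lowest WT library in 8.

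Levels were divided by the length of all annotated exons of a gene joined together, which can exceed the length of its mRNA. For Fabp4 this length was 4489 bases, the whole span of the gene, against 922 for Cfd. Ranks between genes therefore depend on the annotation, and that of Fabp4 below Cfd is not firm. Per kilobase of this length, Cfd had the highest level, with a median of 647 normalized counts over the 10 libraries and a range of 21.8 to 3420. Fabp4 came next (168.5 per kb) and was below Cfd in 8 of 10 libraries, the exceptions being KO2 and KO5. Adipoq (102), Lpl (78.5) and Cidec (73.2) were close, each above the next in only 6 and 5 of 10 libraries. Plin4 followed at 48.9, Pck1 at 41.3, Plin1 at 21.9 and Retn at 18.6 per kb, and Plin1 exceeded Retn in only 4 libraries, so this order is not firm. Lep was lowest at 6.33 per kb and was below Retn in 10 of 10 libraries.

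The members moved together across libraries. Pearson's r of the log2 levels over the 10 libraries had a median of 0.921 over the 45 pairs and ran from 0.506 to 0.995. With each group's mean removed the median was 0.925, and without KO2 and KO5 it was 0.848. The mean r of a gene with the other 9 was highest for Cidec (0.929), Adipoq (0.928) and Cfd (0.928), and lowest for Fabp4 (0.663). Without KO2 and KO5, Fabp4 reached 0.861 and Lep, the gene with the fewest reads, 0.662. These are descriptions over libraries that share depth and tissue content, with no test.

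**Figure D3:**
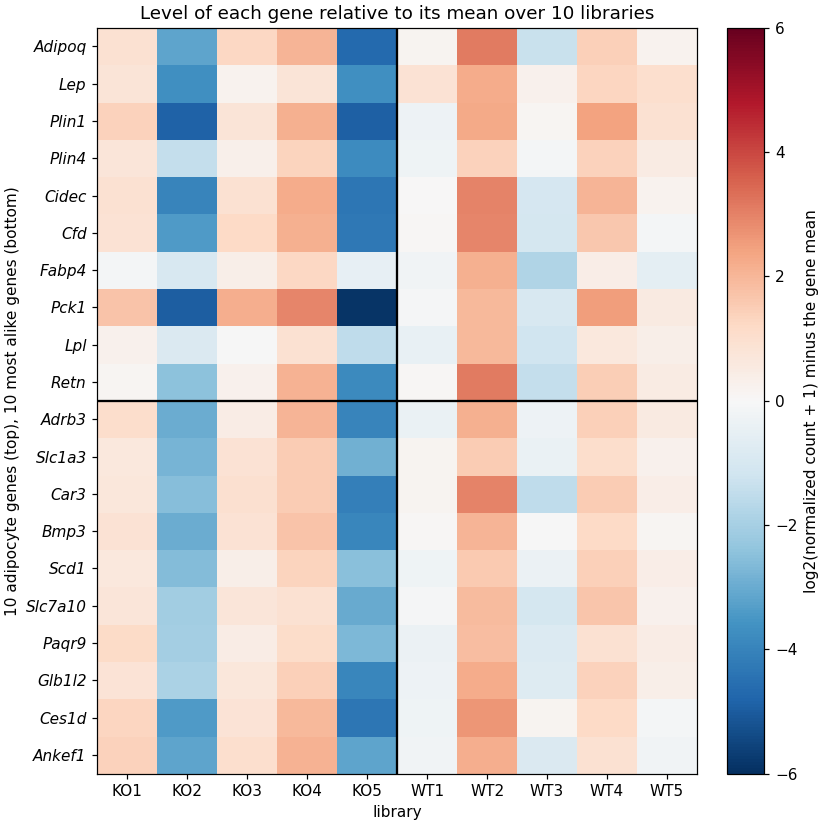
Log2 of the normalized count plus 1 minus the gene's mean over the 10 libraries (colour, blue below and red above), for the 10 adipocyte genes (top) and the 10 genes most like them (bottom), with KO libraries left of the line and WT right. KO2 and KO5 are blue in nearly every gene, while WT2 and KO4 are red.

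The 10 other genes whose log2 levels followed the members' mean most closely over the 10 libraries were Adrb3, Slc1a3, Car3, Bmp3, Scd1, Slc7a10, Paqr9, Glb1l2, Ces1d and Ankef1, with r from 0.976 to 0.988. Adrb3 encodes the beta-3 adrenergic receptor of fat. It had 30.8, 0.938, 19.7, 62.3 and 0 normalized counts in KO1 to KO5, against 10.8, 67.4, 11.7, 40.5 and 21.0 in WT1 to WT5, and KO2 and KO5 were again lowest. Car3, a carbonic anhydrase abundant in fat and muscle, averaged 1026 ± 931 in KO and 2103 ± 2343 in WT (n = 5 per group, SD; log2 difference -1.42 ± 1.06, limma adjusted p = 0.893). Scd1, the stearoyl-CoA desaturase, averaged 4280 ± 3726 in KO and 6443 ± 3895 in WT (log2 difference -1.10 ± 0.74, limma adjusted p = 0.879). Without the 2 libraries farthest from the median, KO2 and KO5, r was 0.889 to 0.989 for these 10 genes. These 10 were taken from the 17873 other tested genes with a symbol. Among all tested genes other than the members, with or without a symbol, 72 had an r of at least 0.9 and 188 an r of at least 0.8.

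The rest of the adipocyte machinery, from lists written with earlier results known, called 0 genes in limma in either direction in every list. The members' droplet partners, lipid droplet proteins and lipolysis, had 7 of 12 fitted lower and 5 higher (median -0.16), and 2 of these, Lipe and Pnpla2, had an r of at least 0.8 with the members. Hilpda, a hypoxia-inducible inhibitor of lipolysis, lay on the other side of 0, with 148, 325, 168.7, 213 and 534 normalized counts in KO1 to KO5 against 160, 116, 144, 101 and 97.5 in WT1 to WT5 (log2 difference 1.02 ± 0.32, limma adjusted p = 0.589). Fitm2 (-0.60), Mgll (-0.65) and Plin2 (0.30) were the others with the smallest p in that list. Fatty acid and triglyceride synthesis had 16 of 17 fitted lower (median -0.56), beside 51% of all genes. Of these, 4 (Elovl6, Acacb, Me1 and Dgat2) had an unadjusted limma p under 0.05, beside 3.67% of all genes lower at that level. Elovl6, a fatty acid elongase, averaged 921 ± 253 in KO and 1711 ± 449 in WT (n = 5 per group, SD; log2 difference -0.90 ± 0.22, limma adjusted p = 0.418). Its r with the members was 0.431, whereas Gpd1, which makes glycerol phosphate, reached 0.955.

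Fatty acid uptake and the Lpl pathway had 8 of 13 fitted lower (median -0.10), and its named genes were Aqp7 (-1.16), Acsl1 (-0.50), Angptl4 (0.47) and Gpihbp1 (0.51), the anchor of Lpl on capillaries. The adipogenic transcription factors had 12 of 13 fitted lower (median -0.24), of which Zfp423 (-0.69) and Rxra (-0.62) had the smallest p, with Klf15 at -0.81 and Stat5b at -0.24. Pparg, the regulator of the programme, averaged 40.3 ± 28.5 normalized counts in KO and 48.5 ± 30.1 in WT (n = 5 per group, SD; log2 difference -0.45 ± 0.57, limma adjusted p = 0.955). The receptors and insulin response list had 12 of 14 fitted lower (median -0.50), with Slc2a4, the insulin-responsive glucose transporter, at -1.57 and Adra2a at -0.95. Hcar2, a receptor of fat and of myeloid cells, stood at 0.90. The receptors of adipokines had 5 of 8 fitted lower (median -0.03), with C3ar1 at 0.33, Tlr4 at 0.37, Adipor2 at 0.33 and Adipor1 at -0.23. Other adipocyte products had 10 of 14 fitted lower (median -0.35), with Orm1 at -1.56, Retnla at -1.43, Nampt at 0.48 and Cav1 at 0.40.

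The brown adipocyte list had 6 members in the table used, 4 fitted lower and 2 higher (median -0.45). Its named genes were Cox8b (-1.07), Fabp3 (-1.34), Dio2 (-0.45) and Otop1 (0.30). No gene of the list had an r of at least 0.8 with the adipocyte genes over the 10 libraries. Without KO2 and KO5, r was 0.851 for Otop1, 0.738 for Cox8b, 0.528 for Fabp3 and -0.276 for Dio2. Fabp3 and Cox8b were highest in WT2, as the muscle genes were. Adipose progenitors and stroma had 4 of 11 fitted lower (median 0.10), with Icam1 at 0.62, Pdgfra at 0.28, Pi16 at -0.94 and Dpt at -0.77. Pi16, a marker of fibroblast progenitors in fat, held 254, 226, 155, 411 and 48.9 normalized counts in KO1 to KO5, against 261, 1204, 152, 400 and 245 in WT1 to WT5. KO5 was its lowest library and WT2 its highest.

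Markers of other tissues moved with some of the same libraries, and their part in the result was not tested. Skeletal muscle had 20 of 20 members fitted lower (median -2.07), beside 51% of all genes, with 0 called. Its summed counts were 1243, 9845, 901, 7005 and 7463 in KO1 to KO5, against 19220, 167161, 926, 8950 and 18141 in WT1 to WT5. KO2 and KO5, which were low in adipocyte genes, thus held more muscle RNA than KO1 and KO3, and Acta1, the skeletal actin, had 1620 counts in KO2 and 1395 in KO5, against 27352 in WT2. Myh4, a fast myosin, was listed at 1110 in KO2 and 658 in KO5. WT2 was highest for both fat and muscle. Keratinocyte and skin genes had 11 of 11 fitted lower (median -4.34), all 11 with an unadjusted limma p under 0.05, beside 3.67% of all genes. Their sums lay between 48.9 and 97.1 in KO. In WT they were 75.6, 897, 8240, 78.2 and 4199 in WT1 to WT5, so WT3, the WT library lowest in fat genes, was the highest in skin genes. Of these, Dsg1a was at 0 in all 5 KO libraries, and Krt10 averaged 25.2 ± 4.40 in KO and 446 ± 534 in WT (n = 5 per group, SD).

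**Figure D4:**
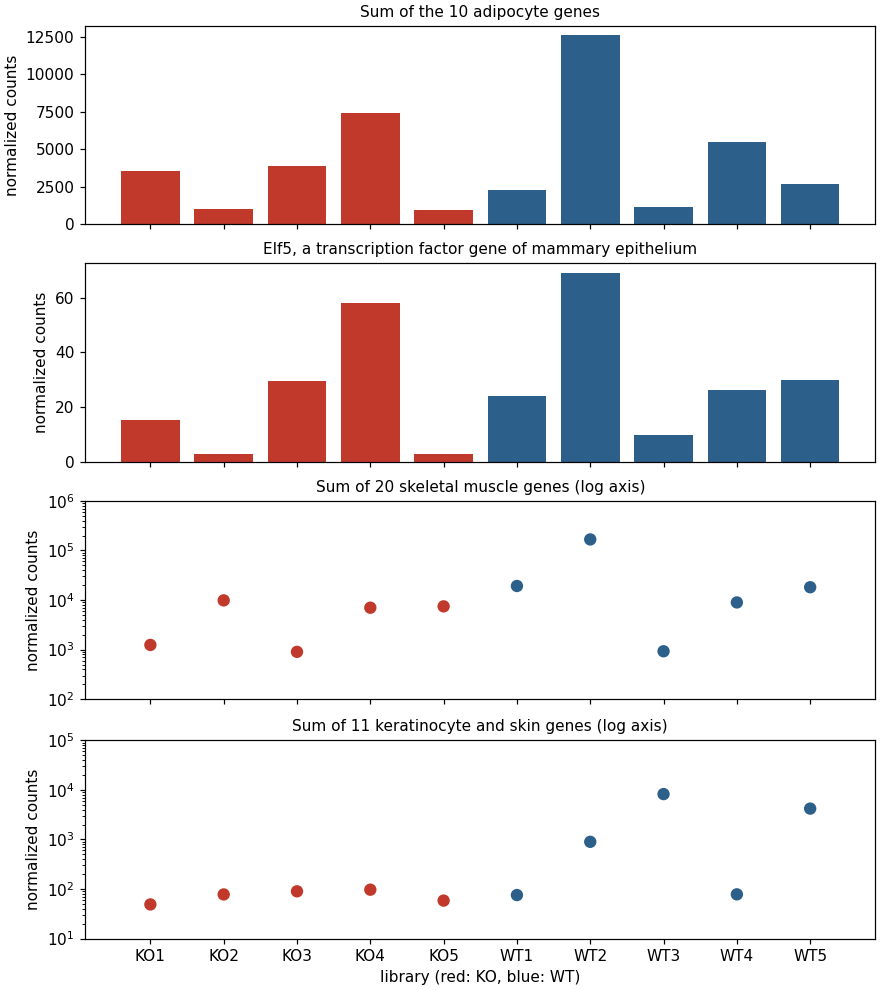
Normalized counts per library (KO red, WT blue) summed over the 10 adipocyte genes, for Elf5 alone, and summed over 20 skeletal muscle and 11 skin genes, the last 2 panels on a log axis. Adipocyte sums run from 916 (KO5) to 12618 (WT2), Elf5 shows the same low libraries, and the muscle and skin sums do not follow that order.

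Endothelial genes had 4 of 12 fitted lower and 8 higher (median 0.07), with sums of 4935 to 7271 in KO and 4065 to 8035 in WT. Pecam1 averaged 1183 ± 161 in KO and 1186 ± 161.7 in WT (n = 5 per group, SD). Macrophage genes had 2 of 11 fitted lower (median 0.19), with sums of 36507 to 61605 in KO and 18573 to 65168 in WT, Lyz2 at 0.72 and C1qa at 0.19. KO5, low in adipocyte genes, had the highest macrophage sum of any library but WT2. Most of that sum was Lyz2 (36114 in KO5), and the genes of the list differed. Msr1 was highest in KO5 (7501), while Cd163 was lowest there (48.0), so the sum does not describe every macrophage gene. Sebaceous gland genes had 5 of 6 fitted lower (median -0.29), with Awat2 at -1.08 and Elovl7 at -0.38. Carcinoma and epithelial genes had 14 of 14 fitted lower (median -0.95, 12 with an unadjusted p under 0.05), with Rab25 at -2.31, Krt14 at -1.85 and Epcam at -1.26. Over all genes, 51% were fitted lower, 3.67% were lower with an unadjusted limma p under 0.05 and 0.734% were lower in every KO library. The sums of the list were 13970 to 20848 in KO and 21351 to 38550 in WT, which do not overlap, though KO4 and WT2 were close. Krt8 and Krt18, the largest in the sum, did overlap, with Krt8 at 6182 in KO4 and 4340 in WT3. Schwann cell and nerve genes had 7 of 9 fitted lower (median -0.30), with Mbp at -0.59.

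Of the secretory mammary epithelium list, 4 of 9 genes were in the table used and 3 were fitted lower (median -0.85). Elf5, a transcription factor of luminal mammary cells, had an r of 0.958 with the members. It held 15.4, 2.81, 29.5, 58.2 and 2.62 normalized counts in KO1 to KO5, against 24.1, 69.2, 9.71, 26.1 and 29.9 in WT1 to WT5. KO2 and KO5 were again lowest and WT2 highest. Btn1a1, which encodes a milk fat globule protein, was at 0 in KO2, KO5 and WT3, and Csn3, kappa casein, had 1.88 in KO2, 12.2 in KO5 and 0.971 in WT3, against 209 in WT2. Xdh, also on the list and made by many cells, had its highest value in KO2 (2934) and an r of -0.506. Elf5, Btn1a1 and Csn3 thus shared the low libraries of the adipocyte genes, and their part in the result was not tested.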

How the data were processed

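RNA was extracted from frozen, sectioned 4T1 tumours, depleted of ribosomal RNA and made into libraries with primers that carry molecular identifiers, per the labels' protocols. The authors deposited a signal table of normalized counts. Its values are whole reads divided by a library factor (100% of values whole within 0.0001 of a read), and these factors equal median-of-ratios size factors (ratio 1.0). Per the submitters' processing notes, bcl2fastq 2.17 and GRCm38 were used. The aligner, counter, strand setting and handling of the identifiers are not given in the sources used here, so floors cover counting error only. GENCODE M21 gave symbols for 17953 IDs, and 94 had none.

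A gene was tested where its mean over the 10 libraries reached 10 normalized counts, which 17975 did and 72 did not. The groups were compared on log2 of the normalized count plus 1 in limma 3.58.1 (R 4.3.3, intensity trend), with Benjamini-Hochberg adjustment over all genes at 0.05. On this scale the added 1 shrinks the ratio between low values, while libraries near 0 weigh more in a mean of logs than in a count model. On the recovered reads, edgeR 4.0.16 called 1 gene and DESeq2 1.42.0 called 121, as alternatives. Python 3.11.15 with matplotlib 3.10.9 drew the figures.

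The members and the gene lists were chosen with earlier results of these data known. Named genes are all members, the 10 genes most like them and, from each other list, genes among the 4 with the smallest p or, for other cell types, the 3 with the highest level. Pparg, Lipe, Pnpla2, Gpd1 and Sox10 were picked for mention with their values in view. WT2 and WT5, which share a number, differed with a chi-square over degrees of freedom of 142.5, inside the span of all WT pairs (38.36 to 177.1), and both were kept. The level of the knocked-out gene and 1 gene that the naming rule picks are not reported here.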

Additional observations from a re-analysis of the deposited data

Results flagged for a closer look

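In these results 1 library of 5 stood apart, its gap to the nearest other library of its group exceeding the 95% critical value of the group's range, which chance alone gives in about 1 in 20 groups. Acacb was 50.6 normalized counts in KO5, the lowest KO library (gap 0.884 of the range). Dio2 was 332 in KO3, the highest KO library (0.801), and Xdh was 2934 in KO2 (0.735). Among WT libraries, Gpihbp1 was 43.2 in WT5 (0.735), Slc2a4 was 321 in WT2 (0.771) and Hcar2 was 611 in WT3 (0.793). Myh4 (0.723) and Btn1a1 (0.801) were at 0 in WT3. All gaps were judged on log2 of the normalized count plus 1, although the values printed here are normalized counts. On the log2 scale none of the 10 adipocyte genes stood apart in this way in either group. Gaps on the counts themselves were not judged, where WT2 held 3732 of Fabp4 and the next WT library, WT4, 1116.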

How the results depend on the processing

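Under 25 alternatives, 0 members were called in each, and the median of the members stayed below 0 in 24. Leaving out 1 library at a time gave -2.18 to -0.48, edgeR and DESeq2 -0.67 each, and KO5 against WT1 to WT4 alone -5.02; without KO2 and KO5 it was 0.43. Of 1923 refits of single genes, 65 changed sign, and the cause was not tested. Without KO2 and KO5, a choice made after seeing the data, as was leaving out WT2, WT3 and WT5, the log2 differences that changed sign were Adipoq 0.67, Plin1 0.35, Plin4 0.21, Cidec 0.50, Cfd 0.72, Pck1 1.48, Lpl 0.12, Retn 0.093, Otop1 -0.00076, Pecam1 0.014, Elf5 0.17, Csn3 0.71, Btn1a1 0.85, Adrb3 0.48, Slc1a3 0.49, Car3 0.33, Bmp3 0.49, Scd1 0.22, Slc7a10 0.26, Paqr9 0.48, Glb1l2 0.40, Ces1d 0.65, Ankef1 1.14, Pparg 0.44, Lipe 0.13, Pnpla2 0.049 and Sox10 0.43. Among libraries without the prefix they were Adipoq 0.043, Cfd 0.34, Mgll 0.16, Rxra 0.045, Tlr4 -0.068, Pi16 0.0066, Dpt 0.29, Pecam1 0.0995, Ces1d 0.29, Ankef1 0.55, Pparg 0.29, Lipe 0.61 and Pnpla2 0.41. Among the prefixed libraries they were Fabp4 -0.61, Adipor1 0.24, Pdgfra -0.19, Acta1 0.77 and Myh4 0.23. With the prefix as a term, Pdgfra -0.035 changed sign, and under TMM scaling Pecam1 0.00058. edgeR changed Fabp4 -0.38, Pck1 0.30 and Ankef1 0.038, and DESeq2 changed Fabp4 -0.38, Pck1 0.31 and Ankef1 0.062. Without WT2, WT3 and WT5 they were Fabp4 -0.094 and Pparg 0.20. Leaving out 1 library moved Fabp4 between -0.43 and 0.56, Csn3 between -1.72 and 0.14 and Pecam1 between -0.072 and 0.065. Of all genes, limma called 1. The count was 121 by DESeq2, 26 without the prefix, 0 with it, 0 with WT2 and WT5 averaged, 0 without KO2 and KO5, 0 without WT2, WT3 and WT5, and 0 to 3 with 1 library left out. Of the other lists' genes limma called 0, DESeq2 9 and the libraries without the prefix 7, among them Rab25, Elovl6 and Krt10 by DESeq2. With the replicate number (1 to 5 in each group) as a block, the members' median stayed at -1.48, and 1 gene and 0 members were called. The deviations of KO and WT libraries of the same replicate number from their group means had an r from -0.229 to 0.518. Of the 5, 1 correlated best with its own replicate number, so they were not taken as pairs. Counts near 0 in KO2 and KO5 limit precision there: 3 members in KO2 and 5 in KO5 had at most 3 reads.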

Other observations

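Cd163, which encodes a scavenger receptor of resident macrophages, had an r of 0.887 with the adipocyte genes over the 10 libraries. C1qa had 0.146 and Lyz2 -0.0563. Without KO2 and KO5, r was 0.811 for Cd163, 0.928 for C1qa and 0.853 for Lyz2, so that contrast rested on those 2 libraries. The normalized counts of Cd163 were 470, 259, 368, 705 and 48.0 in KO1 to KO5, against 697, 1362, 226, 712 and 587 in WT1 to WT5. Sox10, a transcription factor of Schwann and other neural crest cells, had an r of 0.939. It held 12.6, 0, 28.1, 41.9 and 0.873 normalized counts in KO1 to KO5, against 15.8, 24.6, 6.80, 44.9 and 15.5 in WT1 to WT5. Sox10 was lowest in KO2 and KO5, and Cd163 was lowest in KO5, with WT3 next and KO2 after it. Hilpda had an r of -0.801 with the adipocyte genes over the 10 libraries and of -0.0668 without KO2 and KO5, so that relation rested on those 2 libraries.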
